A study of Mus musculus with 9 samples.

Results

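The genes described here were 33 p53 target genes and regulators of apoptosis taken by gene symbol. Of these, 31 had a named probe set, 1 each, among 19572 named probe sets of the array for 19505 symbols, and Trp53 and Bax were not analysed here. Expression was measured on 9 arrays of C1498, a mouse leukaemia cell line. The cells had taken up lentivirus that carried green fluorescent protein (GFP) and 1 of 3 constructs: a negative control (Scr), or a short hairpin RNA against ZEB-1 with sequence C (ZEB C) or sequence D (ZEB D). Each construct was represented by 3 arrays, hybridised with RNA from GFP+ cells 2 weeks after infection. Per the labels all 3 groups were the same line, described with the same medium, transduction and isolation of GFP+ cells. The labels do not say if the 3 arrays of a construct were separate infections, so the p-values measure the spread between these arrays, which may be technical.

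p53 is a transcription factor that is stabilised by DNA damage and other stress. It switches on genes that halt the cell cycle (Cdkn1a, Btg2), repair DNA (Ddb2, Xpc), limit p53 itself (Mdm2) or kill the cell (Bbc3, Pmaip1, Fas). Apoptosis is decided at the mitochondrion by the BCL2 family, in which BCL2, BCL-XL (Bcl2l1) and MCL1 hold the killers in check and BH3-only proteins release them. Released cytochrome c then assembles with APAF1 to activate caspases, whereas death receptors such as FAS act through caspase 8. Blood cells and leukaemias depend heavily on these survival proteins.

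The reference promoters of the members are shown first because p53 and ZEB1 act through short DNA motifs, and the sequences show which members carry one close to the start of transcription. RefSeq windows (GRCm38.p6) of 250 bases before to 50 after a gene's start were found for 23 of the 31 measured members. The decamer consensus of a p53 half-site, which equals its own reverse complement, occurred in the windows of 8 of these 23 genes (34.8%), against 9.55% of 27025 genes with a window. These were Cdkn1a, Mdm2, Ccng1, Gadd45a, Ei24, Polk, Aen and Sesn1. A single decamer is a half-site and not a full p53 site, and only Cdkn1a held 2 exact matches in 1 window. Decamers that depart from the consensus at any base were not counted or marked, so full sites with such a decamer were missed. The motif that ZEB1 binds, CAGGTG or, on the other strand, CACCTG, occurred in 5 of the 23 (21.7%), against 22.6% of all genes. Those were Plk3, Tigar, Bbc3, Aen and Cdkn1a. The search matched only bases given as capitals in the reference windows, covered both strands, and let matches of the 2 motifs overlap. A match is a description of the letters and not evidence of binding. In the 7 stretches that follow, each on the gene's own strand, capitals mark the p53 half-site decamer, or in Plk3 the ZEB1 motif.
Cdkn1a (chr17:29090889-29090948, plus strand): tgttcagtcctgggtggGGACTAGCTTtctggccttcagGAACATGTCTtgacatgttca
Mdm2 (chr10:117710909-117710968, minus strand): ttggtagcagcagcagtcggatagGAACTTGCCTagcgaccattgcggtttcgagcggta
Ccng1 (chr11:40755437-40755496, minus strand): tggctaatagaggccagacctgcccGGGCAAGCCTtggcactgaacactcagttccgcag
Gadd45a (chr6:67037413-67037472, minus strand): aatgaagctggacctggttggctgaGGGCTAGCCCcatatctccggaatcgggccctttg
Ei24 (chr9:36797335-36797394, minus strand): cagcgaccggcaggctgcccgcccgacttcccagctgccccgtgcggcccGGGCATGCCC
Polk (chr13:96519378-96519437, minus strand): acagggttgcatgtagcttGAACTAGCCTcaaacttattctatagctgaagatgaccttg
Plk3 (chr4:117134084-117134203, minus strand): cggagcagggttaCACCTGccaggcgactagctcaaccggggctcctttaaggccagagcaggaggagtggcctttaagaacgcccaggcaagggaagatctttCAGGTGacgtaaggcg
The 2 decamers of Cdkn1a began at positions -73 and -51 from 1 of its starts, and its ZEB1 motif at -187 from another. The 2 ZEB1 motifs of Plk3 began at -227 and -136. Those of Bbc3 began at -226 and -193 from 1 of its starts and at 12 from another. In Ei24 the decamer ended at the last base before the start. Of the 5 members that separated the hairpins, described further on, Bcl2, Btg2 and Casp8 held neither motif in their windows, and Ddb2 had no window.

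Values are log2 RMA signals, so a difference of 1 is a 2-fold change, and levels of different probe sets are not compared. Array medians lay between 6.97 and 7.16. Zeb1, the target of the hairpins, stood at 10.52, 10.29 and 10.56 on the Scr arrays, 10.41, 10.01 and 10.34 on those labelled ZEB C, and 9.56, 9.26 and 9.40 on those labelled ZEB D. It was lower in ZEB D (log2 fold change -1.05, limma adjusted p = 0.0263), a call lost when any of 5 single arrays was left out, while the arrays labelled ZEB C overlapped Scr (-0.20, limma adjusted p = 0.895). Of 16 myeloid markers measured, only Fcgr3 and Mpo lay above the array median on all 9 arrays, and Spi1, the myeloid master regulator PU.1, ran from 5.00 to 5.72. The pan-leukocyte gene Ptprc (14.40 to 15.31), the CD3 subunit gene Cd3e (13.41 to 15.32) and the mast cell protease Cpa3 (14.98 to 15.66) were high on all arrays. Their lists were mixed. Above the array median on all arrays lay 2 of 3 pan-leukocyte markers and 6 of 14 T and NK cell markers. The same held for 3 of 6 erythroid, megakaryocyte and mast cell markers. Cd52, Cd8a and Klf1 were among those that did not. Scr 8, ZEB C 12, ZEB D 14 and ZEB D 15 deviated together from their group means across the array, so many fold changes are also given without these 4 arrays. That leaves 2 Scr arrays, 2 ZEB C arrays and ZEB D 13 alone, so such values for ZEB D rest on 1 array, whose spread is taken to be that of the other groups, and they are given as values and not as tests. Without them Zeb1 differed by -0.98 in ZEB D. The call of Zeb1 was also lost with a variance prior that follows the level (limma adjusted p = 0.0904) and with only the compared groups in the fit (limma adjusted p = 0.0626).

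No measured member was called in any comparison, where a call means an adjusted p under 0.05 in limma across all probe sets. In ZEB C against Scr 0 of 31 members passed, with 0.945% of all probe sets called, in ZEB D against Scr 0 of 31, with 0.843% called, and in ZEB D against ZEB C 0 of 31, with 0.848% called. At such low backgrounds a count of 0 does not set the members apart. At the looser adjusted p under 0.1, 0, 0 and 2 of the 31 passed (1.61%, 1.53% and 1.60% of all probe sets), and the 2 were Bcl2 and Plk3 between the hairpins. With array weights estimated by limma, 0, 1 and 4 of the 31 passed at 0.05, the 4 being Bcl2, Plk3, Casp8 and Ddb2, and so did 2.92%, 5.50% and 4.26% of all probe sets. At an unadjusted p under 0.05 the members counted 4, 3 and 5 in the 3 comparisons (12.9%, 9.68% and 16.1%), against 8.77%, 13.6% and 11.7% of all probe sets. The median log2 fold change of the members was 0.03, -0.16 and -0.11, against 0.00, 0.04 and 0.04 over all probe sets. Both directions were represented, with 16 higher and 15 lower in ZEB C than in Scr, 13 higher and 18 lower in ZEB D than in Scr, and 11 higher and 20 lower in ZEB D than in ZEB C. The groups did not overlap for 7 members in ZEB C against Scr (14.2% of all probe sets did not overlap), for 2 in ZEB D against Scr (17.0%) and for 5 between the hairpins (15.2%). The comparisons with Scr share their control arrays and are not independent of each other.

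These data also bound the size of the changes in signal that could have been missed. The 95% interval of the log2 fold change lay wholly within a 2-fold change either way for 17 of the 31 members in ZEB C, 18 in ZEB D and 21 between the hairpins. Mcl1 had the intervals -0.22 to 0.55 and -0.26 to 0.52 against Scr, and Cdkn1a had -0.23 to 0.51 and -0.20 to 0.54. Cdkn1a was read below the median of every array, so its intervals bound the signal of a dim probe set and not the change of its transcript. The interval of Sesn2, in contrast, ran from -3.49 to 0.39 in ZEB D, so that neither a large fall nor no change lay outside it.

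**Figure D1:**
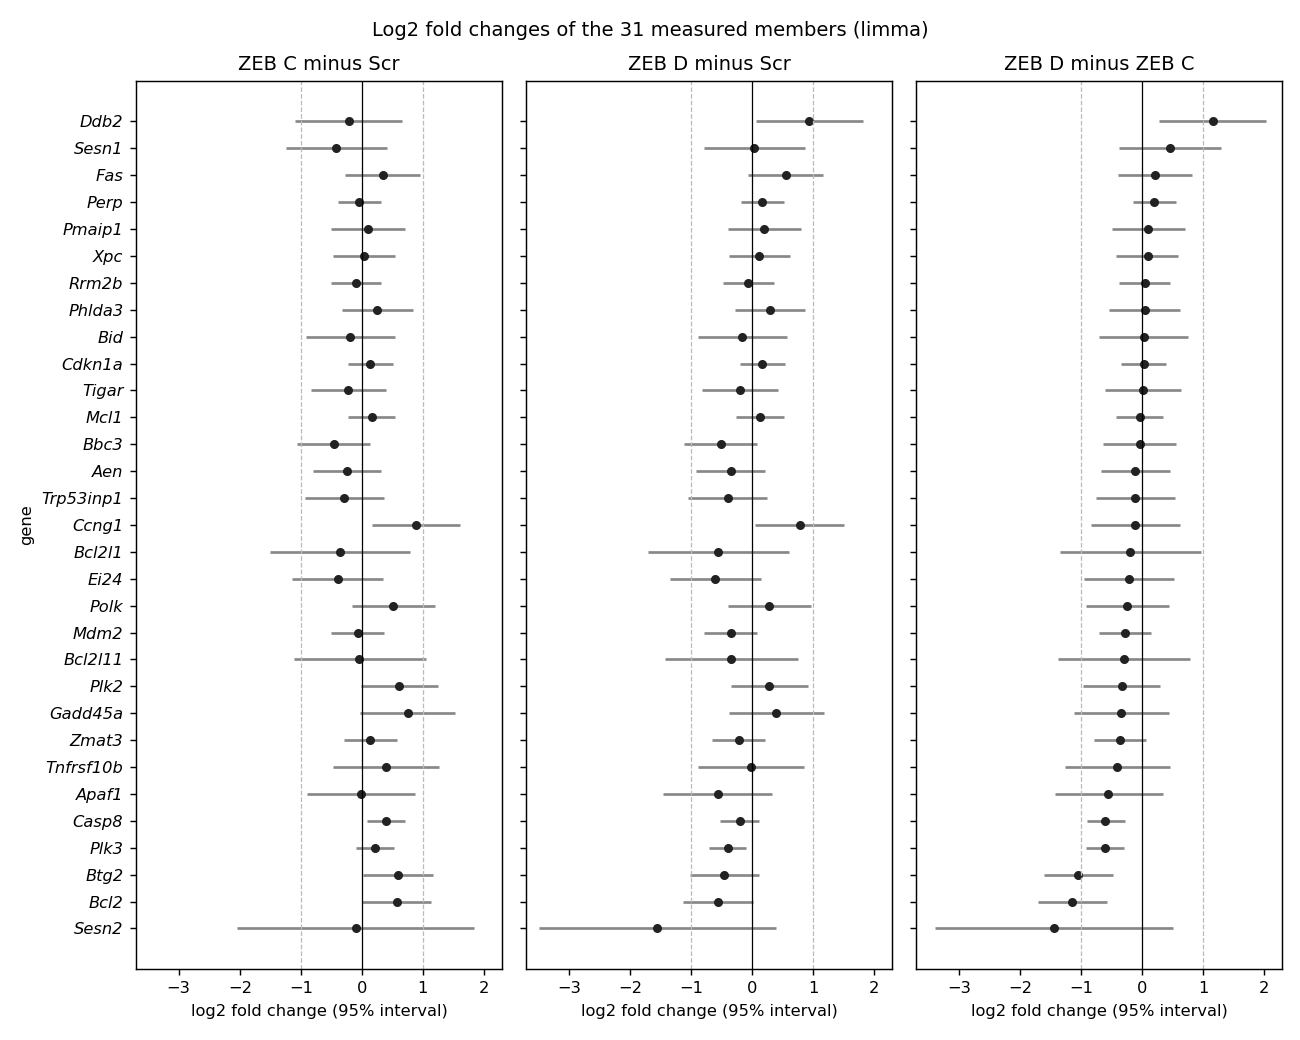
Log2 fold changes (x axes, points) with their 95% intervals (lines) for the 31 measured members (rows), ordered by the difference between the hairpins; dashed lines mark a 2-fold change either way. Most intervals cover 0; between the hairpins Bcl2, Btg2, Plk3 and Casp8 lie to the left of 0 and Ddb2 to the right, and Sesn2 has the widest interval in each panel.

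Among the genes that stop the cell cycle or limit p53, the best-known p53 readouts had small differences. Cdkn1a, which encodes the cyclin-dependent kinase inhibitor p21, was read at 5.16, 5.54 and 5.31 in Scr, 5.30, 5.53 and 5.61 in ZEB C, and 5.49, 5.68 and 5.36 in ZEB D. All 3 groups overlapped, below the array medians, and the fold changes were 0.14 ± 0.16 (SE) and 0.17 ± 0.16, with limma adjusted p of 0.962 and 0.681. Mdm2, the ubiquitin ligase that degrades p53, stood at 9.57, 9.89 and 9.79 in Scr, 9.75, 9.76 and 9.53 in ZEB C, and 9.70, 9.04 and 9.46 in ZEB D. ZEB D 14 was the low array. The fold changes of Mdm2 were -0.07 ± 0.19 and -0.35 ± 0.19 (limma adjusted p = 0.998 and 0.462), and the latter became 0.02 without the 4 arrays.

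Ccng1, cyclin G1, had the largest difference of any member in ZEB C. Its values were 11.73, 12.59 and 12.16 in Scr, 12.71, 12.77 and 13.65 in ZEB C, and 12.52, 13.30 and 12.99 in ZEB D. The ZEB C arrays all lay above Scr, and ZEB D overlapped Scr through array 13. The log2 fold changes were 0.88 ± 0.32 and 0.78 ± 0.32, 1.84 and 1.71 times the Scr level, and neither passed (limma adjusted p = 0.4 and 0.341).

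Gadd45a, a stress sensor that acts on cell cycle and repair, stood at 9.81, 10.67 and 10.18 in Scr, 11.44, 10.74 and 10.72 in ZEB C, and 10.15, 10.41 and 11.31 in ZEB D. The ZEB C arrays lay above Scr, ZEB C 12 and 11 by a small margin. Its fold changes of 0.75 ± 0.35 and 0.40 ± 0.35 did not pass (limma adjusted p = 0.602 and 0.645), and were 1.09 and 0.15 without the 4 arrays. Of the other growth-arrest members, Plk2, a polo-like kinase, was 4.36 to 4.62 in Scr, 4.72 to 5.78 in ZEB C and 4.50 to 5.08 in ZEB D, and Phlda3, an inhibitor of AKT, was 5.47 to 5.95, 5.62 to 6.33 and 5.52 to 6.21. Zmat3, an RNA-binding p53 target, was 8.18 to 8.55, 8.31 to 8.71 and 8.03 to 8.49.

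Between the hairpins, 5 of 31 members did not overlap (16.1%, against 15.2% of all probe sets), a share near the background. They had the lowest p-values of the list and are described for that reason. Bcl2, the founding survival protein of its family, was 9.97, 9.21 and 8.95 in Scr, 10.00, 9.76 and 10.09 in ZEB C, and 8.95, 8.61 and 8.88 in ZEB D. Every ZEB C array lay above every ZEB D array, and Scr spanned both, with Scr 7 at the level of ZEB C and Scr 9 at that of ZEB D 13. The difference of ZEB D from ZEB C was -1.14 ± 0.25, or 0.45 times, with a 95% interval of -1.71 to -0.57 (limma adjusted p = 0.0944). It passed without Scr 7 (limma adjusted p = 0.0322), an array that enters this comparison only through the shared estimate of spread. Against Scr, Bcl2 had fold changes of 0.57 ± 0.25 and -0.56 ± 0.25 (limma adjusted p = 0.567 and 0.373).

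Plk3, a polo-like kinase activated by stress, had the smallest within-group spread of the members (pooled SD 0.10). Its levels were 7.46, 7.31 and 7.47 in Scr, 7.52, 7.74 and 7.62 in ZEB C, and 7.10, 6.90 and 7.05 in ZEB D. The 3 groups were fully separated, with ZEB C highest and ZEB D lowest. ZEB D differed from ZEB C by -0.61 ± 0.14, or 0.66 times (limma adjusted p = 0.0954), and from Scr by -0.40 ± 0.14 (limma adjusted p = 0.251), while ZEB C differed from Scr by 0.21 ± 0.14 (limma adjusted p = 0.814).

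Casp8, the initiator caspase of death receptors, was 13.90, 13.64 and 13.81 in Scr, 14.24, 14.13 and 14.16 in ZEB C, and 13.73, 13.46 and 13.55 in ZEB D. ZEB C lay above both other groups, and ZEB D overlapped Scr only through array 13. The difference between the hairpins was -0.60 ± 0.14 (limma adjusted p = 0.114), with 0.39 ± 0.14 and -0.20 ± 0.14 against Scr (limma adjusted p = 0.383 and 0.56). Btg2, an antiproliferative p53 target, was 6.14, 6.97 and 6.97 in Scr, 7.14, 7.05 and 7.66 in ZEB C, and 6.22, 6.29 and 6.20 in ZEB D. ZEB C lay above both other groups, and Scr 7 was as low as ZEB D. Its difference between the hairpins was -1.05 ± 0.25, or 0.48 times (limma adjusted p = 0.121), with 0.59 ± 0.25 and -0.46 ± 0.25 against Scr (limma adjusted p = 0.54 and 0.469).

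Ddb2, a sensor of ultraviolet DNA damage, went the other way and was 11.49, 12.47 and 11.40 in Scr, 11.55, 11.48 and 11.69 in ZEB C, and 11.98, 12.71 and 13.50 in ZEB D. ZEB D lay above ZEB C on all arrays, and Scr 8 lay above ZEB D 13. ZEB D exceeded ZEB C by 1.16 ± 0.39, or 2.23 times (limma adjusted p = 0.284), and Scr by 0.94 ± 0.39 (limma adjusted p = 0.337), while ZEB C differed from Scr by -0.21 ± 0.39. Without the 4 arrays the first of these was 0.47 and the second 0.53. For each of these 5 members the exact two-sided permutation p between the hairpins was 0.10, the smallest that 3 arrays against 3 allow. The differences of Bcl2, Btg2, Plk3 and Casp8 between the hairpins were -0.93, -0.87, -0.53 and -0.45 without the 4 arrays, with ZEB D 13 as the only ZEB D array.

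**Figure D2:**
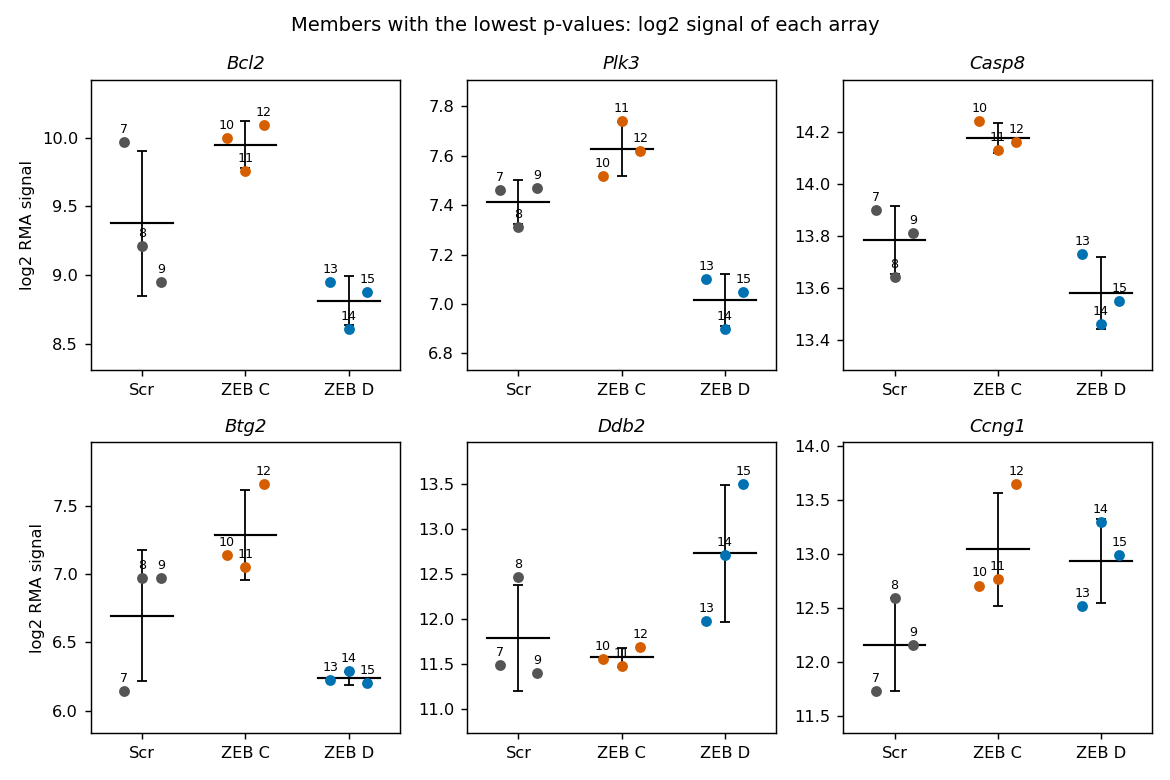
Log2 signal (y axes) of each array (points, numbered by array) of the control (Scr) and both hairpins (ZEB C, ZEB D), with the group mean (line) and SD (bars, n = 3), for 6 members. Bcl2, Plk3, Casp8 and Btg2 are lower on all ZEB D than on all ZEB C arrays, Ddb2 is higher, and Ccng1 is higher on all ZEB C arrays than on Scr.

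No repair or stress-metabolism member passed. Polk, a lesion-bypass DNA polymerase, stood at 9.22, 9.72 and 9.25 in Scr, 10.21, 9.92 and 9.60 in ZEB C, and 10.20, 9.02 and 9.80 in ZEB D. ZEB D held both the lowest array of all, 14, and one of the highest, 13, and the fold changes were 0.51 ± 0.30 and 0.28 ± 0.30 (limma adjusted p = 0.77 and 0.728). Without the 4 arrays they were larger, 0.83 in ZEB C (limma adjusted p = 0.0658) and 0.96 in ZEB D. Xpc, which recognises bulky DNA lesions, was 9.54 to 10.11 in Scr, 9.57 to 10.04 in ZEB C and 9.55 to 10.13 in ZEB D. Rrm2b, the p53-inducible ribonucleotide reductase subunit, was 8.03 to 8.74, 8.20 to 8.33 and 8.26 to 8.32. Aen, an exonuclease of apoptotic cells, was 9.64 to 10.31, 9.57 to 10.16 and 9.43 to 10.07. Tigar, a regulator of glycolysis, was 7.74 to 8.47, 7.50 to 8.36 and 7.66 to 8.26, and Trp53inp1, a stress-induced nuclear protein, was 6.77 to 7.45, 6.66 to 7.32 and 6.35 to 7.26. In these 5 all groups overlapped.

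Sesn2, a sestrin that restrains growth signalling under stress, varied most within groups, with a pooled SD of 1.29, above that of 99.7% of all probe sets. It was 8.10, 7.16 and 8.59 in Scr, 8.32, 9.19 and 6.03 in ZEB C, and 7.94, 5.42 and 5.84 in ZEB D. The low arrays were ZEB C 12, ZEB D 14 and ZEB D 15, and Scr 8 was the lowest of Scr. Its difference in ZEB D was -1.55 ± 0.86 from Scr (limma adjusted p = 0.473) and -1.45 ± 0.86 from ZEB C (limma adjusted p = 0.563), which became -0.40 and -0.81 without the 4 arrays. In ZEB C it differed from Scr by -0.10 ± 0.86, which became 0.41. Sesn1, its paralogue, went from 11.03 to 12.53 in Scr, from 11.19 to 11.51 in ZEB C and from 11.24 to 12.15 in ZEB D.

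Of the genes that act at mitochondria none was called, and Bcl2l1, Bcl2l11 and Apaf1 lay below their group means on all 4 of the arrays where Sesn2 did, whereas Bcl2, Mcl1 and Pmaip1 did not. Bcl2l1, which encodes the survival protein BCL-XL, was 14.73, 13.80 and 14.71 in Scr, 14.60, 14.35 and 13.21 in ZEB C, and 14.89, 13.07 and 13.62 in ZEB D. Bcl2l11, the BH3-only killer BIM, was 7.85, 6.97 and 8.00 in Scr, 7.85, 7.97 and 6.89 in ZEB C, and 8.31, 6.59 and 6.91 in ZEB D. In both genes Scr 8, ZEB C 12, ZEB D 14 and ZEB D 15 were the 4 lowest arrays, so the survival gene and the killer gene were low on the same arrays. Fold changes against Scr were -0.36 ± 0.51 and -0.55 ± 0.51 for Bcl2l1 (limma adjusted p = 0.988 and 0.674) and -0.04 ± 0.48 and -0.34 ± 0.48 for Bcl2l11 (limma adjusted p = 0.998 and 0.799). Without the 4 arrays the ZEB D values turned to 0.17 and 0.39.

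Apaf1, the scaffold of the apoptosome, was 7.94, 7.70 and 8.67 in Scr, 8.42, 8.28 and 7.56 in ZEB C, and 8.31, 6.92 and 7.39 in ZEB D. Its lowest arrays were ZEB D 14 and 15, and its fold changes were -0.02 ± 0.39 and -0.56 ± 0.39 (limma adjusted p = 0.998 and 0.566), with 0.05 and 0.01 without the 4 arrays. Bid, which links death receptors to mitochondria, was 8.51 to 9.24 in Scr, 7.89 to 9.08 in ZEB C and 8.52 to 8.94 in ZEB D. Ei24, an endoplasmic reticulum protein induced by p53, was 14.06, 13.43 and 14.21 in Scr, 13.84, 13.58 and 13.10 in ZEB C, and 13.96, 13.07 and 12.86 in ZEB D. Its fold changes were -0.39 ± 0.33 and -0.60 ± 0.33 (limma adjusted p = 0.907 and 0.463), and its 50 nearest neighbours in gene order had a median of -0.25 and -0.38. Leaving out the 4 arrays gave fold changes of -0.43 and -0.18.

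In all, 11 of the 31 members (35.5%) lay below their group mean on each of the 4 arrays and 3 (9.68%) above it, against 14.2% and 13.6% of all probe sets. The 11 were Sesn2, Bcl2l1, Bcl2l11, Apaf1, Tnfrsf10b, Ei24, Bid, Bbc3, Aen, Zmat3 and Casp8, and the 3 were Ccng1, Sesn1 and Phlda3. The 4 arrays were chosen from the values of all probe sets, these included, so the shares are descriptions. What set these arrays apart was not tested.

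**Figure D3:**
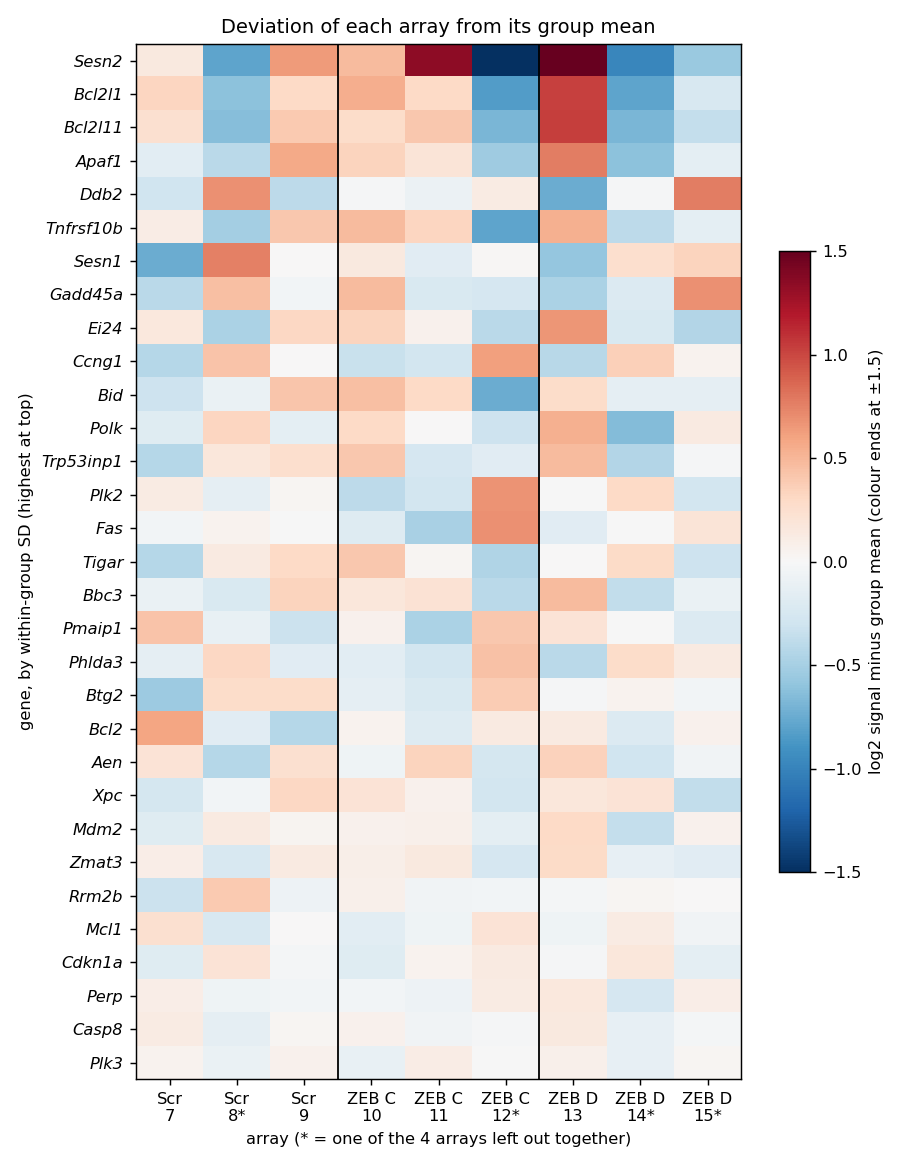
Log2 signal of each array minus its group mean (colour) for the 31 measured members (rows, largest within-group SD at the top) on the 9 arrays (columns); stars mark the 4 arrays that deviated together. Sesn2, Bcl2l1, Bcl2l11 and Apaf1 are blue on all 4 starred arrays, whereas Plk3 and Casp8 at the bottom hardly vary within groups.

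Of the remaining BCL2 family members, Mcl1, a short-lived survival protein, was steady at 10.09, 9.61 and 9.85 in Scr, 9.86, 9.96 and 10.23 in ZEB C, and 9.91, 10.10 and 9.93 in ZEB D. Its fold changes were 0.17 ± 0.17 and 0.13 ± 0.17 (limma adjusted p = 0.946 and 0.779), and both were -0.06 without the 4 arrays. Bbc3, the BH3-only protein PUMA, was 7.44, 7.31 and 7.87 in Scr, 7.25, 7.30 and 6.68 in ZEB C, and 7.51, 6.66 and 6.93 in ZEB D. All ZEB C arrays lay below Scr, 10 and 11 narrowly and 12 clearly, while ZEB D 13 lay within Scr. Fold changes of -0.46 ± 0.27 and -0.51 ± 0.27 did not pass (limma adjusted p = 0.754 and 0.448), and were -0.38 and -0.14 without the 4 arrays. Pmaip1, the BH3-only protein NOXA, was 6.31, 5.77 and 5.56 in Scr, 6.04, 5.50 and 6.39 in ZEB C, and 6.29, 6.07 and 5.88 in ZEB D. The groups overlapped, with fold changes of 0.10 ± 0.27 and 0.20 ± 0.27 (limma adjusted p = 0.998 and 0.782), or -0.17 and 0.35 without the 4 arrays.

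Fas, a death receptor of the tumour necrosis factor family, was 6.28, 6.37 and 6.31 in Scr, 6.47, 6.17 and 7.35 in ZEB C, and 6.70, 6.86 and 7.06 in ZEB D. All ZEB D arrays lay above Scr, and in ZEB C a single array, 12, stood out. The fold changes were 0.34 ± 0.27 and 0.55 ± 0.27 (limma adjusted p = 0.888 and 0.414), and the ZEB C value fell to 0.03 without the 4 arrays. The 50 neighbours of Fas in gene order had a median of -0.65 in ZEB C. They were taken from genes above the median level, whereas the mean of Fas lay below it, so whether Fas shared their shift cannot be read from these values. Tnfrsf10b, the receptor for the ligand TRAIL, was 8.01 to 8.92 in Scr, 8.12 to 9.39 in ZEB C and 8.12 to 9.04 in ZEB D, and Perp, a membrane protein of p53-driven death, was 6.18 to 6.35, 6.13 to 6.33 and 6.16 to 6.57.

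Around the members, 5 lists of pathway genes held a few calls. In the death receptor list 2 of 14 genes rose in ZEB C and 0 fell (0.659% of all probe sets rose and 0.286% fell), and 1 of 14 fell in ZEB D (0.445% fell) and 0 rose. Tnfrsf1a, the main receptor for tumour necrosis factor, was 8.50, 7.34 and 7.92 in Scr, 10.76, 11.84 and 10.95 in ZEB C, and 9.15, 9.25 and 8.28 in ZEB D. It rose by 3.26 ± 0.39 in ZEB C, 9.60 times (limma adjusted p = 0.00798), a call kept whichever array was left out, and ZEB D differed from ZEB C by -2.29 ± 0.39 (limma adjusted p = 0.0331), a call lost without any of 7 single arrays and with only the compared groups in the fit (limma adjusted p = 0.0748). Tnfsf10, the ligand TRAIL, was 7.14, 7.72 and 7.23 in Scr, 8.76, 8.56 and 9.52 in ZEB C, and 8.47, 8.56 and 8.00 in ZEB D. Both hairpin groups lay wholly above Scr, and the rise of 1.58 ± 0.28 in ZEB C was called (limma adjusted p = 0.0385), a call lost without any of 8 single arrays, while 0.98 ± 0.28 in ZEB D was not (limma adjusted p = 0.181). Without the 4 arrays they were 1.48 and 1.28. The call in ZEB C was also lost after a repeated quantile normalization (limma adjusted p = 0.0653) and with only the compared groups in the fit (limma adjusted p = 0.0814).

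Tnf, the cytokine itself, was 7.87, 8.82 and 7.59 in Scr, 7.96, 7.46 and 8.03 in ZEB C, and from 5.53 to 6.46 on the 3 ZEB D arrays. The ZEB D arrays were the lowest, with a change of -2.10 ± 0.35 from Scr (limma adjusted p = 0.0326), a call lost without any of 8 single arrays and with only the compared groups in the fit (limma adjusted p = 0.0746). The fold change in ZEB C was -0.28 ± 0.35, and the hairpins differed by -1.82 ± 0.35 (limma adjusted p = 0.0538).

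Of 22 regulators of the p53 pathway, 1 rose in ZEB C and 0 fell (0.659% of all probe sets rose and 0.286% fell). In ZEB D against Scr 0 were called (0.843% of all probe sets). The one that rose was Hipk2, a kinase that phosphorylates p53, at 10.72, 11.08 and 10.99 in Scr, 12.11, 12.15 and 11.75 in ZEB C, and 11.05, 10.53 and 10.90 in ZEB D. ZEB C stood above all other arrays, 1.07 ± 0.19 over Scr (limma adjusted p = 0.0399), and ZEB D differed from ZEB C by -1.18 ± 0.19 (limma adjusted p = 0.0276). These calls were lost without any of 6 and any of 5 single arrays, with a variance prior that follows the level (limma adjusted p = 0.108 and 0.0768) and with only the compared groups in the fit (limma adjusted p = 0.0592 and 0.0853). The first was also lost with array medians subtracted (limma adjusted p = 0.0763). Against Scr, ZEB D differed by -0.10 ± 0.19, a sign that turned under quantile normalization.

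Of 26 other p53 target genes, 0 were called against Scr with either hairpin, and 1, Ndrg1, was lower in ZEB D than in ZEB C (0.542% of all probe sets were lower and 0.307% higher). Cd82 had the largest difference of this list in ZEB C, 2.23 ± 0.43 over Scr, and narrowly missed the threshold (limma adjusted p = 0.0513). It was 0.59 ± 0.43 over Scr in ZEB D (limma adjusted p = 0.58). Ndrg1, a stress-responsive gene also induced by hypoxia, was 6.52, 7.32 and 7.30 in Scr, 9.28, 8.17 and 10.00 in ZEB C, and 6.68, 6.14 and 6.89 in ZEB D. It differed by -2.58 ± 0.44 between the hairpins (limma adjusted p = 0.0318, lost without any of 6 single arrays and, at 0.0913, with only the compared groups in the fit) and by 2.10 ± 0.44 in ZEB C from Scr, which missed the threshold (limma adjusted p = 0.0708), with -0.48 ± 0.44 in ZEB D. Of 18 caspases, inhibitors of apoptosis and apoptosome partners, 1 rose in ZEB C and 0 fell (0.659% of all probe sets rose and 0.286% fell). In ZEB D against Scr 0 of these were called (0.843% of all probe sets). Naip5, an inflammasome sensor of the inhibitor-of-apoptosis family whose close paralogues can share probes, was 6.42, 6.50 and 6.82 in Scr, 7.45, 7.25 and 7.41 in ZEB C, and 6.29, 6.34 and 6.35 in ZEB D. It rose by 0.79 ± 0.15 in ZEB C (limma adjusted p = 0.0495), a call lost without any of the 9 arrays and under 5 other settings (limma adjusted p from 0.0519 to 0.112), and ZEB D differed from ZEB C by -1.04 ± 0.15 (limma adjusted p = 0.0154, lost without any of 3 single arrays) and from Scr by -0.25 ± 0.15. With the 4 arrays left out, ZEB D 13 differed from ZEB C by -1.08 for Hipk2, -2.04 for Ndrg1, -1.06 for Naip5 and -2.15 for Tnfrsf1a. The medians of the 5 lists lay between -0.10 and 0.27 in ZEB C and between -0.08 and 0.14 in ZEB D. Between the hairpins they lay between -0.46 and 0.02, against 0.04 over all probe sets. The lowest was that of the death receptor list, where 10 of 14 genes were lower in ZEB D and 4 higher.

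Of 16 other BCL2 family genes 0 were called in the 3 comparisons by limma, and 3, 0 and 3 had an unadjusted p under 0.05 (18.8%, 0% and 18.8%, against 8.77%, 13.6% and 11.7% of all probe sets). The 3 were Bcl2a1a, Bcl2a1b and Bcl2a1d, copies of the survival gene A1 that are nearly identical, so their probe sets may share signal, and they are named after their values were seen. Bcl2a1d was 7.13, 7.60 and 7.51 in Scr, 10.15, 9.20 and 12.09 in ZEB C, and 7.00, 7.69 and 7.76 in ZEB D. All ZEB C arrays lay above the other groups, with ZEB C 12 far above the rest. Fold changes in ZEB C were 2.87 ± 0.76 for Bcl2a1a, 3.48 ± 0.83 for Bcl2a1b and 3.07 ± 0.60 for Bcl2a1d (limma adjusted p = 0.166, 0.12 and 0.0556). The hairpins differed by -3.21 ± 0.76, -3.50 ± 0.83 and -3.00 ± 0.60 (limma adjusted p = 0.114, 0.117 and 0.065). Without ZEB C 12 alone, the fold changes in ZEB C of Bcl2a1a and Bcl2a1d were 1.79 and 2.26 and passed (limma adjusted p = 0.0404 and 0.0257). Bcl2a1d also passed in ZEB C without ZEB C 11 (limma adjusted p = 0.0289) and with a variance prior that follows the level (limma adjusted p = 0.0401). The same held with the dimmest probe sets left out (limma adjusted p = 0.0482). With array weights, under which 2.92% of all probe sets passed, so did Bcl2a1d and Bcl2a1b (limma adjusted p = 0.0121 and 0.0321). Bcl2a1b did not pass in ZEB C whichever single array was left out (limma adjusted p from 0.0516 to 0.348). Leaving out other single arrays gave a limma adjusted p of up to 0.405 for Bcl2a1a and 0.197 for Bcl2a1d.

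**Figure D4:**
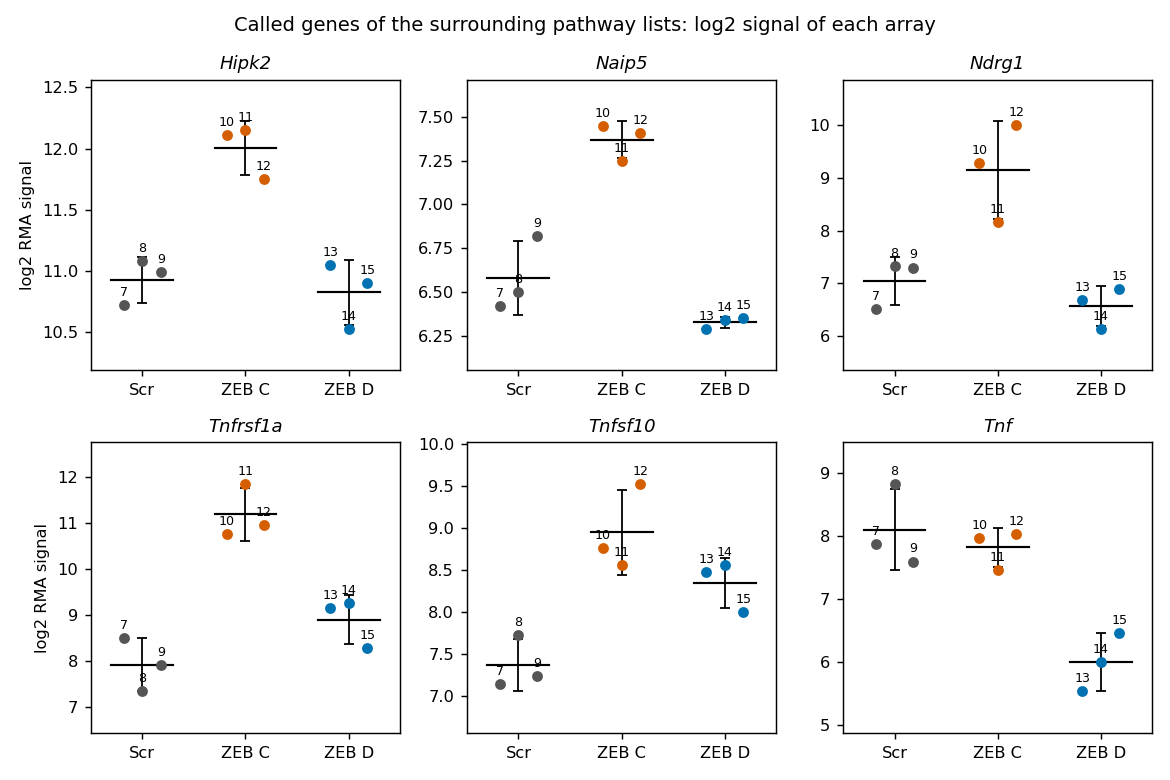
Log2 signal (y axes) of each array (points, numbered by array) by construct, with the group mean (line) and SD (bars, n = 3), for the 6 genes of the surrounding lists called in at least 1 comparison. ZEB C is highest and separate from Scr for Hipk2, Naip5, Ndrg1, Tnfrsf1a and Tnfsf10, and ZEB D is lowest for Tnf.

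A few markers of blood cells were called in ZEB C against Scr, where 0.945% of all probe sets were called. Of 14 T and NK cell markers, 2 were, Nkg7 and Gzmb, higher by 5.93 and 4.33 (limma adjusted p = 0.0109 for both). The mean level of the 14, these 2 included, ran from 8.44 to 8.56 on the Scr arrays, 9.23 to 9.69 in ZEB C and 8.20 to 9.18 in ZEB D. The rest went both ways in ZEB C, from -0.94 for Cd3d to 1.51 for Klrb1c, so the mean does not describe a shift of the whole list. Ncr1, an NK cell receptor, stayed between 4.59 and 4.83. Fcgr3, an Fc receptor of the myeloid list, was the only one of 16 called, lower in ZEB C (limma adjusted p = 5.62e-05), and no B cell, erythroid or stromal marker was called. Whether these markers have a part in the values of Tnfrsf1a, Tnfsf10, Hipk2, Naip5 and Ndrg1 was not tested. RNA per cell and the share of cells that express a gene cannot be told apart in such bulk samples.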

How the data were processed

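The tools listed in the submitters' notes are RMA and Transcriptome Analysis Console, with no version. The authors deposited linear signals from which the decimal point is missing, a scale named other here. Each value was returned to log2 by choosing the decimal place that makes log2 a multiple of 0.01 (tolerance 1e-06 steps, nearest rejected place 0.036 steps). Of 22206 probe sets, 19572 had 1 gene symbol, and 2634 were unnamed here and not tested. limma 3.58.1 (R 4.3.3) was fitted to all 9 arrays with a mean per group and empirical Bayes moderation, with Benjamini-Hochberg adjustment over all named probe sets in each comparison, and was tested on simulated data. The number of arrays limits the precision.

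Members and lists were chosen with earlier results of these data known. Values by array are given for a preset set of well-known members, for the 5 with the largest fold change in each comparison among those with a group mean above 7.10, the median level, and for called genes of the lists, up to 4 per direction. Casp8, Cd82 and the 3 Bcl2a1 genes were added after their values were seen. The 4 arrays named were those on one side of the main axis of within-group deviation (57.9% of that variance), and were only held out. Neighbours were 25 genes per side above the median level, in RefSeq gene order.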

Additional observations from a re-analysis of the deposited data

How the results depend on the processing

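No paired analysis was possible because the groups share no replicate numbers. Across the alternatives, the count of members called stayed at 0 in ZEB C against Scr. In ZEB D against Scr it was 1 with array weights, and between the hairpins it was 2 at an adjusted p under 0.1, 4 with array weights, and 0 to 1 when single arrays were left out. Over the alternatives, the members' median log2 fold change ran from -0.04 to 0.17, from -0.32 to 0.06 and from -0.29 to -0.01 in the 3 comparisons. Several uncalled fold changes turned in sign. Without the 4 arrays, which leaves 1 array of ZEB D, those in ZEB C became 0.08 for Mdm2, -0.17 for Pmaip1, -0.06 for Mcl1, 0.05 for Apaf1, 0.41 for Sesn2 and 0.07 for Ddb2, and those in ZEB D became 0.02 for Mdm2, 0.17 for Bcl2l1, -0.06 for Mcl1, 0.39 for Bcl2l11, 0.01 for Apaf1 and 0.20 for Hipk2. Array weights gave 0.00 for Bcl2l11 and 0.20 for Sesn2 in ZEB C, and a repeated quantile normalization gave 0.01 for Hipk2 in ZEB D. With single arrays left out, values in ZEB C spanned -0.16 to 0.00 for Mdm2, -0.11 to 0.34 for Pmaip1, -0.67 to 0.06 for Bcl2l1, -0.35 to 0.30 for Bcl2l11, -0.22 to 0.27 for Apaf1, -0.78 to 0.80 for Sesn2, -0.41 to 0.13 for Ddb2 and -0.53 to 0.09 for Tnf. In ZEB D they spanned -0.86 to 0.00 for Bcl2l11 and -0.22 to 0.04 for Hipk2. The cause was not tested. Over all probe sets, the 3 comparisons had 185, 165 and 166 calls, with array weights 572, 1076 and 833, and with only the compared groups in the fit 125, 68 and 81. With single arrays left out they ran from 43 to 214, from 14 to 213 and from 49 to 162, the lowest being without Scr 9, Scr 9 and ZEB D 15.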
